A study of Mus musculus with 2 samples.

Results

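Keratin and claudin genes were followed in eYFP-sorted cells from E13.5 mouse embryos, in which the Isl1 promoter drove Cre. The members were the 72 of 32285 genes whose symbol was Krt or Cldn followed only by a number, 49 keratins and 23 claudins. Another 13 symbols with a letter after the number, such as Krt6a and Cldn34a, were outside this rule. The control library held cells of Isl1-Cre;R26R-eYFP embryos, and the mutant library held cells that carried Pik3caH1047R as well, an activating allele switched on by the same Cre. Both groups shared Isl1-Cre and the R26R-eYFP reporter, and each was 1 library of 3 pooled embryos, so no difference between genotypes could be tested against the spread between embryos. The labels name the pharyngeal arch as the source, and the study's methods give the dissected tissue as the upper body, including tissue above the liver. A cell keeps the reporter once Cre has acted in it or its ancestors, so the sort was not limited to one lineage.

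Keratins are the intermediate filament proteins of epithelia. A type I and a type II keratin pair in each filament, with Krt18 and Krt8 typical of simple epithelia and Krt14 and Krt5 typical of the basal layer of stratified epithelia. Claudins are membrane proteins that form the strands of tight junctions. Some seal the space between cells and others form pores for ions or water, and Cldn5 is the main claudin of endothelium.

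After cells outside the study's limits on genes per cell, or with 10% or more mitochondrial UMIs, were left out, 2783 control cells (median 20412 UMIs) and 3489 mutant cells (median 16839 UMIs) remained. The libraries shared 12 cell barcodes among these cells. Female-like cells, judged from Xist and Y-linked genes, made up 95.5% of the control library and 33.6% of the mutant library, so sex and genotype cannot be told apart in the pooled comparison. Clusters were made without the member genes and named from other markers: the epithelium-like cluster raised 16 of 16 epithelial markers, the mesothelium-like cluster 12 of 12, and the endothelial (EC)-like cluster 14 of 14. The epithelium-like class held 177 control and 283 mutant cells, the mesothelium-like class 70 and 66, and the EC-like class 156 and 744. Levels are given as UMIs per 1000000 UMIs of the class (CPM), with exact Poisson 95% intervals that cover counting error only. The libraries counted 5′ ends, so levels are per transcript end and were not divided by gene length.

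The members were used very unequally. They gave 57968 UMIs in the kept cells, and the 8 most abundant took 67.1% of them. Of the 72 genes, 4 had no UMI (Krt34, Krt72, Krt84 and Cldn17), 29 had fewer than 10, and 30 had at least 50. The genes with at least 50 UMIs were 14 of the 49 keratins and 16 of the 23 claudins. Most of the keratins near 0 belong to the hair and nail or late epidermal groups, and Krt2 (3 UMIs) and Krt13 (8 UMIs), keratins of differentiated epidermis and oral mucosa, were among them.

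Nearly all keratin genes lie in 2 arrays: 25 of 26 type I genes on chromosome 11 and all 23 type II genes on chromosome 15 (GRCm38). The exception among type I genes is Krt18, at chr15:102028180-102032027, which lies 23697 bases from its filament partner Krt8 (chr15:101996698-102004482) on the opposite strand. Claudins were spread over 10 chromosomes, with pairs of neighbours such as Cldn3 and Cldn4, 39279 bases apart on chromosome 5, and Cldn6 and Cldn9, 137 bases apart on chromosome 17. Krt15 (chr11:100131758-100135928) and Krt19 (chr11:100140810-100148665) are separated by 4881 bases.

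RefSeq promoters, 250 bases before to 50 after a gene's start on GRCm38.p6, were given for 54 of the 72 members, and they differed between the families in sequence. The TATA box letters TATAAA, on either strand, were in 18 of 35 keratin promoters and 1 of 19 claudin promoters, against 14.2% of 27025 promoters of all genes. The GC box letters GGGCGG, on either strand, were in 2 of 35 keratin promoters and 8 of 19 claudin promoters, against 35.9% of all. Among the 21 members with a promoter given and at least 50 UMIs, TATAAA was found in 3 (Krt8, Krt10 and Krt20). Neither motif overlapped the other in the promoters printed here. Of these, 4 are shown because the results below turn on these genes, with both motifs in capitals: Krt8 (chr15:102004293-102004592, minus strand), Krt20 (chr11:99438104-99438403, minus strand), Krt7 (chr15:101412153-101412452, plus strand) and Cldn5 (chr16:18776597-18776896, plus strand).
Krt8: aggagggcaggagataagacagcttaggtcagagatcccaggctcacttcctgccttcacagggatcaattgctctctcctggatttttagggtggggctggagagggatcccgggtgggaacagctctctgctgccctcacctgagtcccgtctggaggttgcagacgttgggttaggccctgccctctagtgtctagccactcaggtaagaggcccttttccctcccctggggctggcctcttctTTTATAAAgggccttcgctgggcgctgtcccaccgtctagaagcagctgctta
Krt20: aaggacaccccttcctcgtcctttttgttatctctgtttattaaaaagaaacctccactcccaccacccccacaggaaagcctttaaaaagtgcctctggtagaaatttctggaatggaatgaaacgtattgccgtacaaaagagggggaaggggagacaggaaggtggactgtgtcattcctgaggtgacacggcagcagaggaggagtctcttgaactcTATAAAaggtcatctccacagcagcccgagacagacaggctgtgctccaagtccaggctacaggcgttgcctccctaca
Krt7: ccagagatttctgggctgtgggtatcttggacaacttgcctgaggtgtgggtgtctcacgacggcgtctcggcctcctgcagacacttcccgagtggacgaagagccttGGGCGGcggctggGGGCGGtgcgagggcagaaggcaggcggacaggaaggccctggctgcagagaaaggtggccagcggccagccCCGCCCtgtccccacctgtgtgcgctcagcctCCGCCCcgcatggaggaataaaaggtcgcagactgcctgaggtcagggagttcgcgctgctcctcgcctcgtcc
Cldn5: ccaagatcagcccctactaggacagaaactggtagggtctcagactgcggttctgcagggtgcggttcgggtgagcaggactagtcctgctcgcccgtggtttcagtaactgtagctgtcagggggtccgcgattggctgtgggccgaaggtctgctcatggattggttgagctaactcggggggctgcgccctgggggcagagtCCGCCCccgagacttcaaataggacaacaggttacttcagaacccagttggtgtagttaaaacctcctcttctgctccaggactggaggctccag
In Krt8 the forward and reverse forms of TATAAA overlap, and in Krt20 the box starts 29 bases before the RefSeq start. Krt7, whose highest level of any class was in mesothelium-like cells, has 4 GC boxes and no TATAAA, and Cldn5 has 1 GC box.

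Summed keratin and claudin levels differed between the classes. In the control library the keratins together reached 1939 CPM (1894 to 1986) in epithelium-like cells, 784 CPM (747 to 822) in mesothelium-like cells and 560 CPM (497 to 629) in otic-like cells. They reached 22.1 CPM (17.4 to 27.7) in EC-like cells and 56.8 CPM (52.1 to 61.7) in mesenchyme-like cells. The claudins gave a different order, with 1005 CPM (921 to 1096) in otic-like, 790 CPM (761 to 820) in epithelium-like, 405 CPM (384 to 427) in EC-like and 75.5 CPM (64.4 to 87.9) in mesothelium-like control cells. In the otic-like cells claudins therefore exceeded keratins, while in mesothelium-like cells keratins exceeded claudins in both libraries (mutant: 769 CPM against 58.8 CPM).

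**Figure D1:**
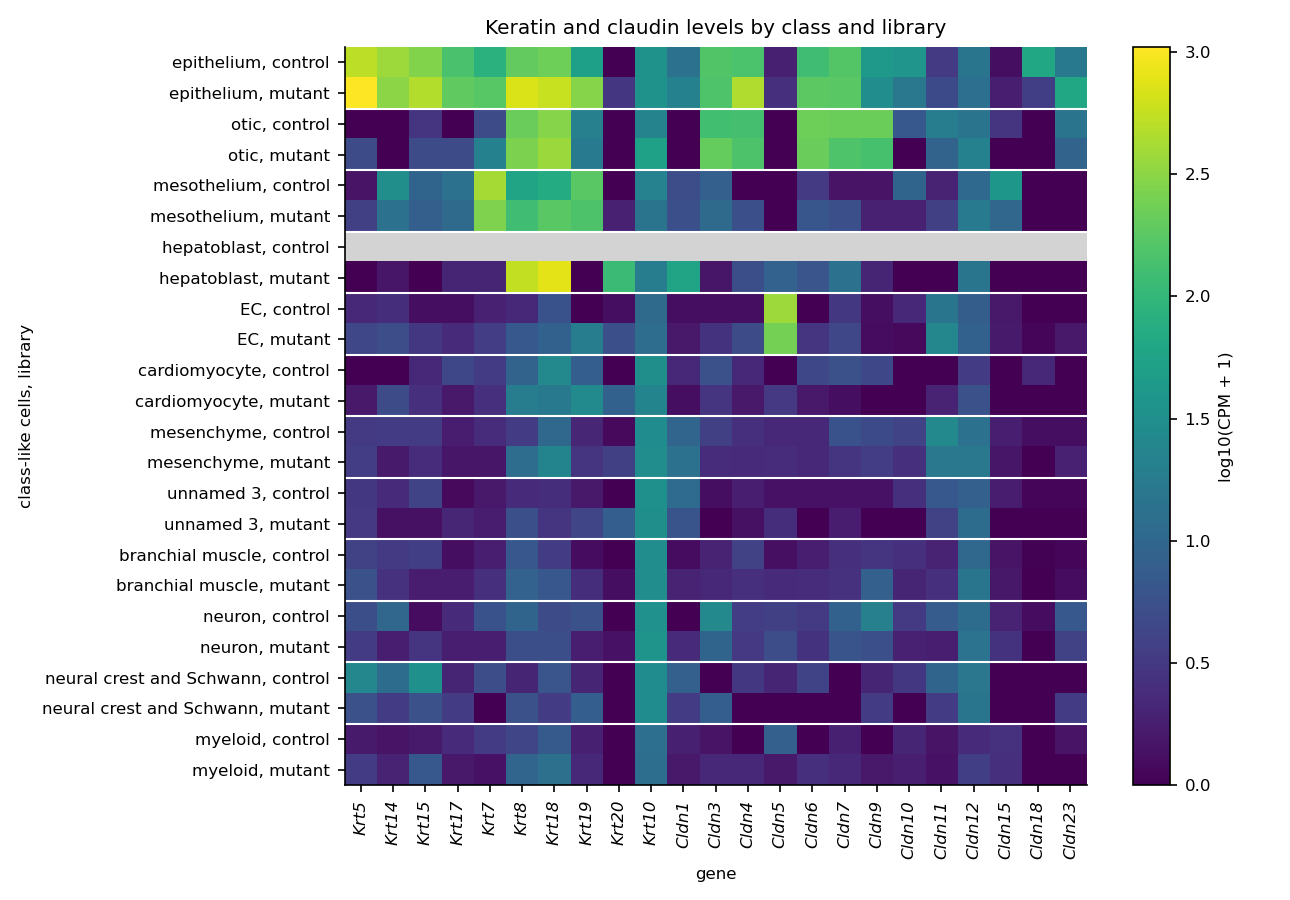
Level of 23 members, as log10(CPM + 1), in each class (rows, control above mutant) and gene (columns); grey marks the control library, which had no hepatoblast-like cell. Krt5, Krt14 and Krt15 are high in epithelium-like cells, Krt7 and Krt19 in mesothelium-like cells, Cldn5 in EC-like cells and Krt8 with Krt18 in hepatoblast-like cells, and Krt10 and Cldn12 are spread over most classes. Krt8 and Krt19 reach their highest level of any class in mutant epithelium-like cells.

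The balance of type I and type II keratins differed between classes. Type I genes gave 57.9% (exact binomial 95% interval 56.8 to 59.1) of keratin UMIs in control and 49.6% (48.9 to 50.3) in mutant epithelium-like cells. In mesothelium-like cells the type I share was 40.7% (38.3 to 43.0) and 48.4% (45.0 to 51.8). It was 88.5% in the control cells of an unnamed cluster led by Adh1 and Myh11 and 79.7% in control branchial muscle-like cells, where Krt10, a type I keratin of suprabasal epidermis, was the most abundant keratin.

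Within the epithelium-like class, 6 sub-clusters formed without the member genes, and member levels differed between them. A sub-cluster of 57 control and 128 mutant cells was led by Pax1, Pax9 and Foxe1, regulators of pharyngeal and oral endoderm and ectoderm, and stayed unnamed, with 3 of 8 foregut and esophagus markers raised. A second, of 27 and 52 cells, was led by Cxcl14 and Wnt9b. The others were pituitary-like (35 and 31 cells), lung and trachea-like (39 and 15 cells), periderm-like (6 and 34 cells, 7 of 10 markers raised) and an Otx2-led one. This last one was led by Gstm1, Aldh1a3 and Otx2 (13 and 23 cells). It is called here by those genes, although it raised 3 of 7 otic markers. Their shares differed between the libraries: the periderm-like cells were 3.39% of control epithelium-like cells, and the lung and trachea-like cells were 22.0% of them.

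Summed basal keratins were highest in the periderm-like, Cxcl14-led and Pax9-led sub-clusters in both libraries. Krt5, the type II keratin of basal cells, reached 1289 CPM (1179 to 1406) in control and 1199 CPM (1120 to 1282) in mutant cells of the Cxcl14-led sub-cluster, where it was found in 92.6% and 92.3% of cells. Krt15, a type I keratin of basal cells, was at 685 and 674 CPM there. For both genes the counting intervals of the libraries overlapped. In the periderm-like sub-cluster Krt5 was at 5839 CPM in control and 4752 CPM in mutant cells, and Krt17, a keratin of periderm and appendages, was at 1243 and 1057 CPM. The basal keratins summed to 9556 and 7430 CPM there, above the simple keratins at 1759 and 4854 CPM. Whether this sub-cluster also held basal cells was not tested. In the pituitary-like and lung and trachea-like sub-clusters the basal keratins summed to between 6.69 and 9.01 CPM in either library. In mesenchyme-like cells, which should lack Krt5, the basal keratins summed to 7.86 and 5.12 CPM. Krt5 alone was found in 3.20% and 3.75% of these cells, at 2.25 and 2.56 CPM and a median depth of 15181 UMIs, against 15833 UMIs in epithelium-like cells. Whether free RNA or doublets gave these low values was not tested.

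Summed simple keratins in the control library were at 1759 CPM in the 6 periderm-like cells, 1035 CPM in the Otx2-led, 776 CPM in the lung and trachea-like, 445 CPM in the pituitary-like, 403 CPM in the Pax9-led and 58.1 CPM in the Cxcl14-led cells. Krt18 was at 267 CPM in control pituitary-like, 231 CPM in control lung and trachea-like and 569 CPM in control cells of the Gstm1, Aldh1a3 and Otx2-led sub-cluster, with Krt8 at 168, 276 and 387 CPM. The Cxcl14-led control cells held 1 UMI of Krt8. Krt7, a type II keratin of ducts and mesothelium, was at 186 CPM in control lung and trachea-like cells and at 308 CPM in control periderm-like cells. Otic-like cells, a separate cluster led by Oc90 and Tectb, used Krt18 (296 CPM control, 364 CPM mutant) and Krt8 (210 and 267 CPM) with no UMI of Krt14 in either library.

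Claudin levels also differed between these epithelia. Cldn18, the claudin of lung and stomach epithelium, gave 218 of its 224 control UMIs of the class in the lung and trachea-like cells, at 218 CPM (190 to 249). Cldn3, a sealing claudin of many simple epithelia, was highest there among the control simple sub-clusters, at 313 CPM (280 to 350). Cldn9, whose loss is known to cause deafness in mice, was at 173 CPM (141 to 211) in control pituitary-like cells and 216 CPM (178 to 260) in control otic-like cells, against 42.3 CPM in the whole control epithelium-like class. Cldn23 was at 363 CPM in control and 372 CPM in mutant periderm-like cells, and at 15.5 and 64.6 CPM in the class as a whole. Cldn4 was at 847 and 1640 CPM in periderm-like cells.

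**Figure D2:**
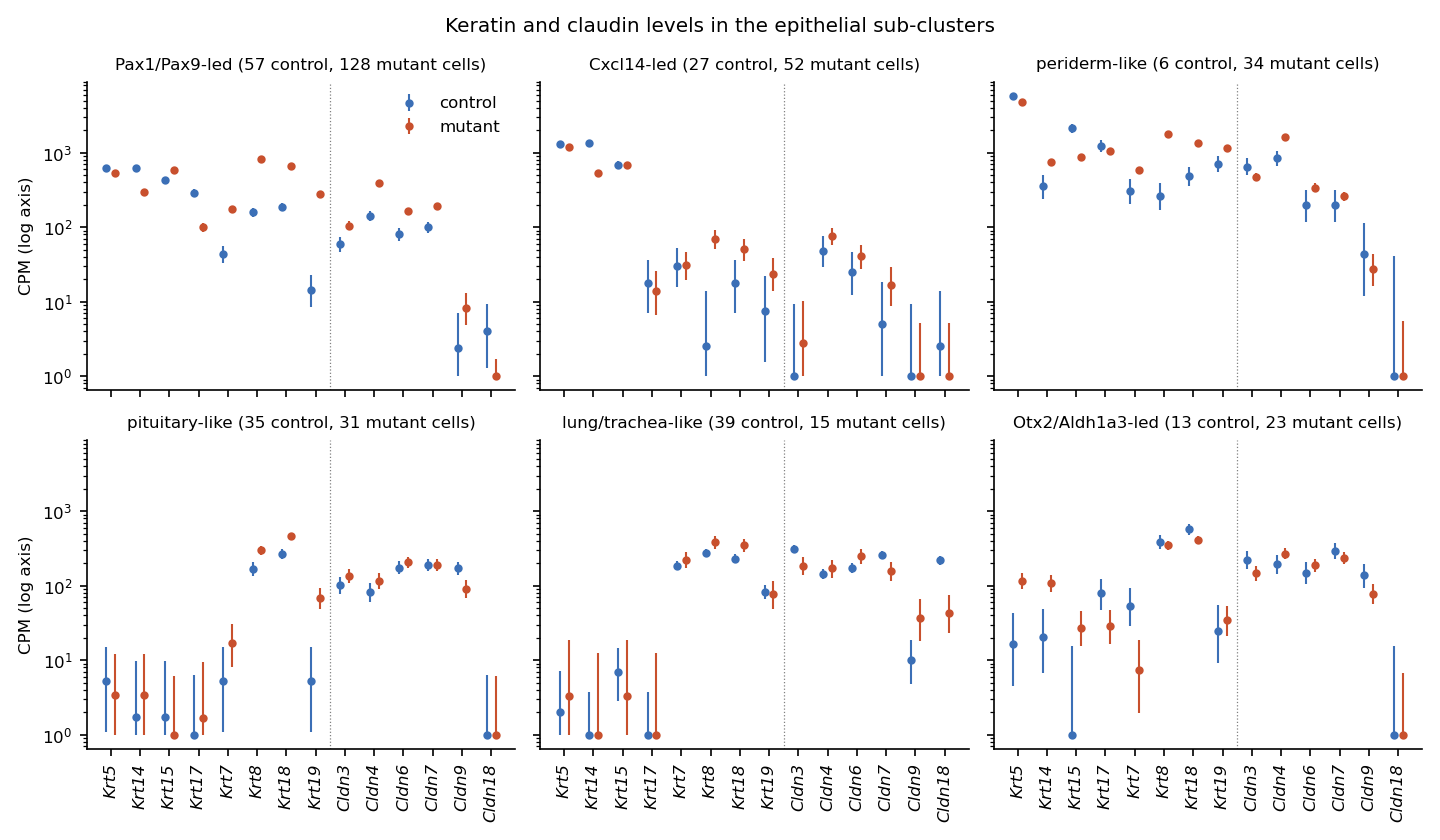
CPM on a log axis of 8 keratins and 6 claudins (left and right of the dotted line) in the 6 epithelial sub-clusters, control in blue and mutant in orange, with 95% counting intervals; values under 1 CPM are drawn at 1. Krt5, Krt14 and Krt15 are higher in the upper panels (Pax1/Pax9-led, Cxcl14-led and periderm-like) than in the lower ones, and Cldn18 is above 10 CPM in the lung and trachea-like panel only.

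The mutant epithelium-like cells held more keratin and claudin UMIs than the control cells. Keratins together were at 1939 CPM in control and 3842 CPM in mutant cells, a log2 ratio of mutant over control of 0.99 (0.95 to 1.03). Claudins were at 790 and 1145 CPM, a log2 ratio of 0.54 (0.47 to 0.60). Of 22 members with at least 50 UMIs, 10 were more than 1.5-fold higher in the mutant library with a counting interval that excluded no change, against 8.01% of all 11396 genes tested, and 2 were lower, against 8.42% of all genes. The median log2 ratio was 0.50 over these 22 members and -0.04 over all genes tested.

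All 4 simple keratins tested were higher. Krt19, a small type I keratin of simple and embryonic epithelia, was at 49.6 CPM (42.6 to 57.5) in control and 298 CPM (283 to 314) in mutant cells, a log2 ratio of 2.59 (2.36 to 2.82). Krt8 was at 194 and 696 CPM, a log2 ratio of 1.84 (1.72 to 1.96). Krt18 was at 227 and 588 CPM (1.37, 1.26 to 1.49), and Krt7 at 83.5 and 172 CPM (1.04, 0.85 to 1.24). Among the basal keratins, Krt5 was at 517 and 1047 CPM (1.02) and Krt15 at 283 and 471 CPM (0.73), while Krt14 was at 382 and 315 CPM (-0.28, -0.38 to -0.17) and Krt17 at 141 and 189 CPM, both under 1.5-fold. A single mutant periderm-like cell held 1804 keratin UMIs, 9.42% of the keratin UMIs of the mutant class, among its 26836 UMIs. Without it the mutant levels were 592 CPM for Krt8, 474 CPM for Krt18 and 241 CPM for Krt19, each still above the control interval.

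Among the claudins that were higher, Cldn23 (15.5 and 64.6 CPM, log2 ratio 2.06) and Cldn4 (144 and 454 CPM, 1.66) showed the largest differences, followed by Cldn8 (0.85) and Cldn1 (0.71). The 2 lower members were Cldn18, at 63.2 and 2.61 CPM (-4.60, -5.53 to -3.80), and Cldn10, a pore-forming claudin, at 36.1 CPM in control cells and a log2 ratio of -1.26 (-1.69 to -0.84). Cldn3 (157 and 152 CPM) and Cldn7 (163 and 178 CPM) had intervals that included no change, from -0.20 to 0.12 and from -0.03 to 0.28 on the log2 scale.

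The mix of sub-clusters moved with these values. When each sub-cluster's level was weighted by the control's share of cells, the keratin ratio was 0.24 in place of 0.99 and the claudin ratio 0.22 in place of 0.54. Without the periderm-like cells they were 0.59 and 0.14, with 6 members higher and 4 lower. Krt5 in particular was not higher in the mutant library within its 3 main sub-clusters: its log2 ratio was -0.25 (-0.38 to -0.12) in the Pax9-led, -0.10 (-0.26 to 0.06) in the Cxcl14-led and -0.30 (-0.43 to -0.16) in the periderm-like cells. Cldn23 likewise had a log2 ratio of 0.03 (-0.49 to 0.60) within periderm-like cells.

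Differences in simple keratins were also seen within sub-clusters. In the Pax9-led sub-cluster, the summed simple keratins (Krt7, Krt8, Krt18, Krt19 and Krt20) were at 403 CPM (369 to 440) in control and 1923 CPM (1865 to 1982) in mutant cells, a log2 ratio of 2.25 (2.12 to 2.39). The basal keratins (Krt5, Krt14, Krt15 and Krt17) were at 1977 and 1510 CPM there, a log2 ratio of -0.39 (-0.47 to -0.31). Krt19 was at 14.5 CPM (8.59 to 22.9) in control and 282 CPM (260 to 305) in mutant cells, and was found in 14.0% and 47.7% of cells. Krt8 was at 159 and 814 CPM (2.35, 2.14 to 2.57). Krt14 went the other way, at 629 and 292 CPM (-1.11, -1.26 to -0.95), and Krt17, at 290 CPM in control cells, had a log2 ratio of -1.53 (-1.78 to -1.29). Claudins of the Pax9-led cells were at 467 and 969 CPM (1.05, 0.92 to 1.19), with Cldn4 at 142 and 395 CPM, Cldn6 at 80.5 and 163 CPM and Cldn7 at 99.0 and 192 CPM.

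Simple keratins were higher in the mutant Cxcl14-led cells (1.59, 0.94 to 2.30; 23 and 125 UMIs), pituitary-like cells (0.92, 0.69 to 1.14) and lung and trachea-like cells (0.42, 0.23 to 0.61) and lower in the Otx2-led cells (-0.37, -0.59 to -0.14), where basal keratins were higher (1.27, 0.68 to 1.90). Summed claudins had log2 ratios of -0.33 (-0.52 to -0.14) in lung and trachea-like, 0.01 (-0.18 to 0.20) in pituitary-like, -0.21 in Otx2-led, 0.28 in periderm-like and 0.48 in Cxcl14-led cells. In the Cxcl14-led cells Krt14 was at 1347 CPM in control and 528 CPM in mutant cells (-1.35, -1.55 to -1.16), beside the nearly equal Krt5 and Krt15 given above. In periderm-like cells the simple keratins had a log2 ratio of 1.46, but the control held only 6 cells, and without the mutant cell rich in keratins Krt18 was at 468 CPM, inside the control interval of 352 to 650 CPM, and Krt14 at 483 CPM, inside 241 to 497 CPM. Krt8 was at 1011 CPM without that cell, against 264 CPM (169 to 393) in control, where 1 of 6 cells held all 24 UMIs. Cldn18 was lower in mutant lung and trachea-like cells themselves, at 218 and 43.5 CPM (-2.33, -3.26 to -1.52), with 15 mutant cells.

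**Figure D3:**
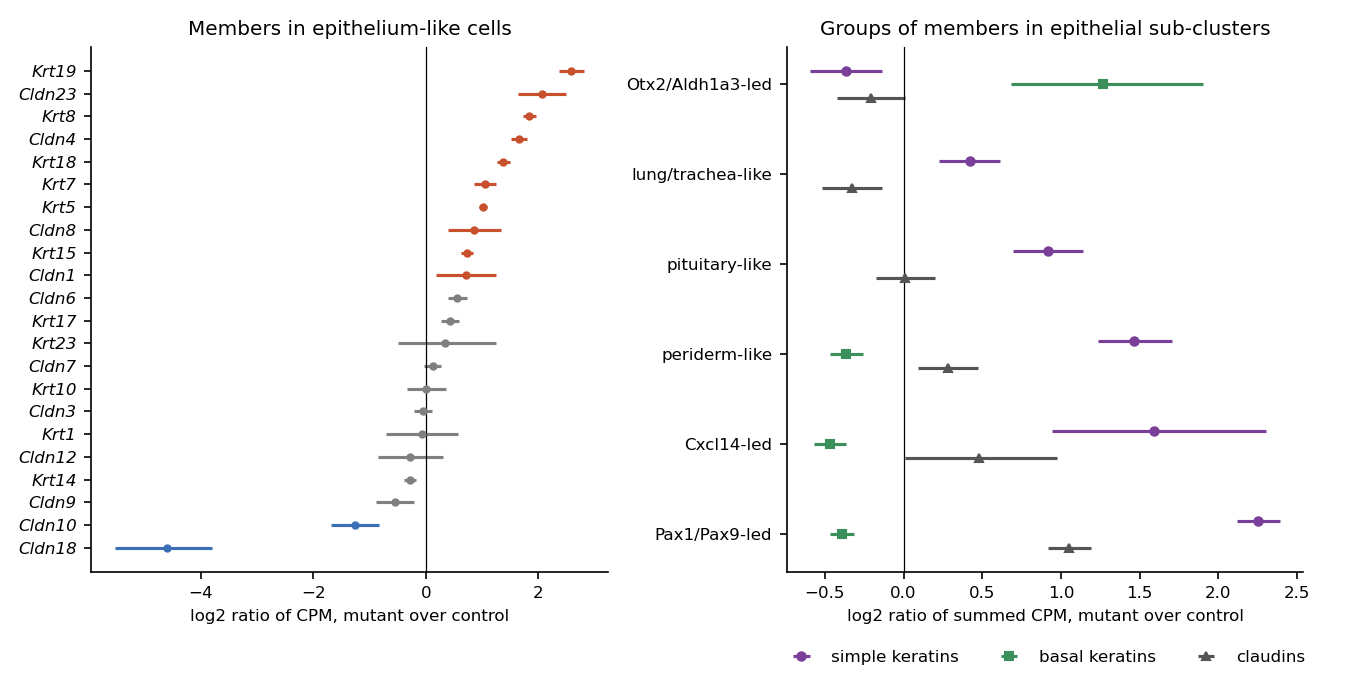
Left, log2 ratio of CPM (mutant over control) with 95% counting intervals for the 22 members tested in epithelium-like cells, orange for higher, blue for lower and grey for neither. Right, the same ratio for summed simple keratins, basal keratins and claudins in each sub-cluster with at least 50 UMIs. Simple keratins lie right of 0 in all sub-clusters drawn but the Otx2/Aldh1a3-led one, while basal keratins lie left of 0 in the Pax1/Pax9-led, Cxcl14-led and periderm-like ones.

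Krt5 and Krt8 were found together in a larger share of mutant than of control cells. Each cell was first thinned to 5000 UMIs, and 7 control and 19 mutant epithelium-like cells were too shallow for this. After thinning, 9 of 54 control cells with a Krt5 UMI also had Krt8 (16.7%), although 44.1% of all control cells of the class had it. In the mutant library 74 of 125 did (59.2%), against 64.4% of all mutant cells. Krt8 and Krt18 occurred together in 70.7% and 64.7% of cells with Krt8. Of cells with Cldn3, 44.0% in control and 84.9% in mutant also had Cldn4. These shares were counted over the whole class, not by sub-cluster, and its make-up differed between the libraries, with 3.39% of control and 34 of 283 mutant cells periderm-like and 22.0% and 5.30% lung and trachea-like. The part of this mix in the shares was not tested.

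In female-like cells alone Krt8 and Krt19 were again higher in the mutant library. Krt19 in epithelium-like cells was at 51.2 CPM (43.9 to 59.4) in 166 control female-like cells, 429 CPM (399 to 460) in 96 mutant female-like cells and 220 CPM (202 to 238) in 160 mutant male-like cells. Krt8 was at 192, 929 and 599 CPM in the same cells. The mutant cell rich in keratins, with 289 UMIs of Krt19 and 536 of Krt8, was not left out here. The mix of sub-clusters in each set was not tested.

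The partners of keratins and claudins were described from lists of names. Of 18 desmosome and hemidesmosome genes tested in epithelium-like cells, 11 were higher and 2 lower in the mutant library, with a median log2 ratio of 0.92, beside 8.01% higher and 8.42% lower of all genes tested in the class. Dsp, which ties keratin filaments to desmosomes, was at 201 and 456 CPM (1.18, 1.06 to 1.30), and Col17a1, a hemidesmosome collagen, was at 53.9 and 31.9 CPM (-0.76, -1.07 to -0.45). Of 19 tight junction partners tested, 3 were higher and none lower, and Tjp1, the scaffold that binds claudins, was at 111 and 139 CPM (0.32, 0.14 to 0.51). Of 15 epithelial regulators, 8 were higher and 2 lower, among them Grhl3, a regulator of epidermal barrier formation, at 21.7 and 136 CPM, while Trp63, the regulator of stratified epithelium, was at 170 and 191 CPM. This list overlapped the markers used for naming. Esrp1, Esrp2, Grhl2, Elf3, Ovol1 and Ehf were markers of the epithelium-like class, and Grhl3 was a marker of the periderm-like sub-cluster. Of the 9 other intermediate filament genes tested, 1 was higher and 2 lower, with Vim at 273 and 246 CPM. These genes were compared over the whole class, in which periderm-like cells were 3.39% of control and 34 of 283 mutant cells, and not within sub-clusters; the part of this mix in the counts was not tested.

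Mesothelium-like cells, the lining cells of the body cavities and heart surface, were rich in Krt7 and Krt19. Krt7 was at 408 CPM (381 to 435) in control and 270 CPM (241 to 303) in mutant cells, a log2 ratio of -0.59 (-0.79 to -0.40), and was found in 97.1% and 78.8% of cells. Krt19 was at 174 and 149 CPM, with an interval of the log2 ratio from -0.49 to 0.05. Krt18 was at 71.8 and 175 CPM (1.29, 0.98 to 1.60) and Krt8 at 56.6 and 122 CPM (1.11, 0.75 to 1.47). The summed keratins had a log2 ratio of -0.03 (-0.15 to 0.09). That ratio was -0.32 (-0.59 to -0.06) with cells thinned to 5000 UMIs and -0.34 (-0.54 to -0.14) in female-like cells. Cldn15, a channel-forming claudin and the only claudin tested in this class, was at 39.1 CPM (31.2 to 48.4) and 9.04 CPM (4.34 to 16.6), a log2 ratio of -2.11 (-3.22 to -1.16), and was found in 35 of 70 and 7 of 66 cells, against 1.51% and 0.789% of mesenchyme-like cells (median depth 15181 UMIs, against 20793 UMIs in mesothelium-like cells). Krt14 was at 30.4 and 12.7 CPM. The 70 control cells held 2173338 UMIs and the 66 mutant cells 1105943, so these shares of cells were counted at unequal depth. At an equal depth of 5000 UMIs per cell, Krt7 was found in 57 of 70 control and 38 of 64 mutant cells. Krt8 was found in 15 of 70 control and 15 of 64 mutant cells at that depth, and 2 mutant cells were too shallow to count. In all, 2 of 7 members tested were higher, against 19.5% of 8440 genes, and 3 were lower, against 11.5%.

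The mesothelial differences did not all hold within female-like cells. Krt8 was at 57.7 CPM in 68 control and 59.7 CPM (37.4 to 90.4) in 23 mutant female-like cells, and at 164 CPM (135 to 198) in 36 mutant male-like cells. Krt18 was at 74.4, 171 and 182 CPM in the same 3 sets, and Krt7 at 407, 231 and 295 CPM. Cldn15 was at 40.5 CPM in control and 5.43 CPM in mutant female-like cells, the latter from 2 UMIs. The epithelial marker Epcam was at 2.76 CPM in control and 17.2 CPM in mutant mesothelium-like cells, and its part in the Krt8 and Krt18 values was not tested. The mesothelial marker Upk3b was at 814 and 1043 CPM.

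**Figure D4:**
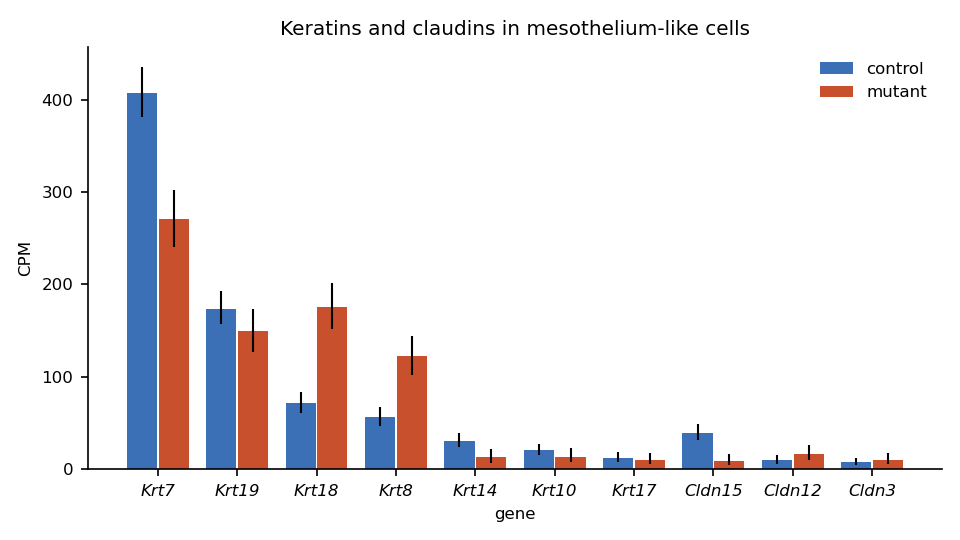
CPM of 7 keratins and 3 claudins in mesothelium-like cells, control in blue (70 cells) and mutant in orange (66 cells), with 95% counting intervals; bars start at 0. Krt7 and Cldn15 are lower and Krt18 and Krt8 higher in the mutant library.

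Hepatoblast-like cells were found in the mutant library only, 47 cells led by Afp and Alb. They used the simple pair without Krt19 or Krt5: Krt18 was at 784 CPM (744 to 825) in 97.9% of cells and Krt8 at 552 CPM (519 to 587) in every cell. Krt19 and Krt5 had 0 UMIs, which allows up to 1.96 CPM. Krt20, best known from intestine and urothelium, was at 113 CPM (98.4 to 129), its highest level in any class. Cldn1 was at 56.3 CPM (46.1 to 68.1) and Cldn14, a sealing claudin also known from the ear, at 11.1 CPM.

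Cldn5 was the claudin of the EC-like cells and of almost no others. It was at 379 CPM (358 to 400) in control and 242 CPM (235 to 250) in mutant EC-like cells, a log2 ratio of -0.64 (-0.74 to -0.55), from 1287 and 3591 UMIs. It was found in 81.4% and 68.0% of EC-like cells (median depth 17591 UMIs) and in 1.51% and 1.78% of mesenchyme-like cells. In epithelium-like, mesenchyme-like and branchial muscle-like cells and in the unnamed cluster it lay between 0.343 and 1.60 CPM, and no UMI was found in mesothelium-like or otic-like cells. Neuron-like cells held 2.78 and 4.12 CPM, cardiomyocyte-like cells 0 and 2.15 CPM, neural crest and Schwann-like cells 1.05 and 0 CPM, myeloid-like cells 7.51 and 0.600 CPM, and the mutant hepatoblast-like cells 7.96 CPM (4.46 to 13.1).

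Cldn5 varied among EC sub-clusters, which again were made without the members. The order in the control library was led by an arterial-like sub-cluster at 953 CPM (852 to 1063), a lymphatic-like one at 731 CPM (650 to 819) and a second arterial-like one at 545 CPM (436 to 672), whose intervals did not overlap except between the last pair. The endocardial-like sub-cluster had 1 control UMI and was at 31.8 CPM (21.3 to 45.7) in the mutant library. In the mutant library the first arterial-like sub-cluster was at 397 CPM (350 to 447), the lymphatic-like at 438 CPM (396 to 484) and the second arterial-like at 348 CPM (305 to 396), log2 ratios of -1.26, -0.74 and -0.65. Cldn5 was higher in an unnamed sub-cluster led by Gimap4 (216 and 350 CPM, 0.69, 0.40 to 1.00) and in one led by Kirrel3 (51.5 and 172 CPM, 1.74, 0.48 to 3.38), where 8 control cells held 5 UMIs and 75 mutant cells 130. In one led by Tafa1 and Fendrr it was at 225 and 331 CPM (0.56, 0.19 to 0.95), under 1.5-fold. A sub-cluster of 1 control and 91 mutant cells led by Fgf23, Trib3 and Slc2a3 had 125 CPM in the mutant library. Another, of 13 control and 60 mutant cells, raised 10 of 12 mesenchyme markers. Cldn5 was at 99.5 and 47.7 CPM there (-1.06, -1.68 to -0.41). Whether this sub-cluster held doublets was not tested. Weighted by the control's shares of sub-clusters, the log2 ratio of Cldn5 was -0.43, and a single control cell held 144 of the 1287 UMIs, without which the control level was 339 CPM.

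Cldn11, a sealing claudin of myelin and testis, was the second claudin of EC-like cells, at 14.1 CPM in control and 23.8 CPM in mutant cells (0.75, 0.32 to 1.22). One control cell gave 19 of the 48 control UMIs. It was concentrated in different sub-clusters in the libraries: 225 CPM (157 to 313) in 8 control endocardial-like cells, 2 of which held all 35 UMIs, against 38.4 CPM (26.7 to 53.4) in 43 mutant ones, and 0 UMIs in 17 control cells of the Tafa1 and Fendrr-led sub-cluster against 159 CPM (132 to 191) in 30 mutant ones.

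Keratins together were at 22.1 CPM in control and 67.7 CPM in mutant EC-like cells, and Krt10 gave 34 of the 75 control UMIs. Krt19 had 0 UMIs in 156 control cells and 269 UMIs in 72 of 744 mutant cells (9.68%), a level of 18.2 CPM (16.1 to 20.5), at least 20.6-fold higher than a floor of 3 UMIs in the control library. The highest cell held 38 UMIs, and without it the level was 15.6 CPM. The sub-cluster led by Fgf23, Trib3 and Slc2a3 held 156 of these UMIs, at 77.1 CPM (65.5 to 90.2), and its single control cell had none, which allows up to 93.7 CPM. Krt20 had 1 and 67 UMIs in EC-like cells, at 0.294 and 4.52 CPM, a log2 ratio of 3.94 (1.42 to 9.27). Of 12 members tested in EC-like cells 7 were higher, against 9.66% of 12268 genes, and with Cldn5, which was lower, 8 differed in either direction, against 20.6% of all genes. The others that were higher were Cldn11 and, all under 6 CPM in both libraries, Krt5, Krt8, Krt14 and Cldn4. The limit of 50 UMIs was on both libraries together. Krt19, Krt20 and Krt8 had 0, 1 and 4 control UMIs, and Krt5, Krt14 and Cldn4 also had few. All of these genes therefore entered the 12 through the mutant library. The count of 7 is therefore no support for a family-wide difference. The sub-cluster with raised mesenchyme markers held 38 of the 85 mutant UMIs of Krt8 and 37 of the 269 of Krt19. Krt19 was found in 1.69% and 2.56% of mesenchyme-like cells.

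Markers of other cell types moved with these low values. The 16 epithelial markers summed to 15.9 CPM in control EC-like cells, with 8 at 0, and to 67.6 CPM in mutant ones, with none at 0. The control class held 3399366 UMIs and the mutant class 14814149, so the markers at 0 were counted at unequal totals. Ratios of UMIs between genes were also counted. EC-like mutant cells held 269 UMIs of Krt19 to 50 of Krt5, and epithelium-like mutant cells 1486 to 5219. The epithelial sub-clusters differed in this balance. Mutant pituitary-like cells held 498 UMIs of summed simple keratins to 5 of basal keratins, and lung and trachea-like cells 311 to 2. The source of Krt19 in EC-like cells was not tested. The mesothelial marker Upk3b had 6 UMIs in mutant EC-like cells, and mesothelium-like mutant cells held 165 UMIs of Krt19 to 1154 of Upk3b. For Krt20, EC-like mutant cells held 67 UMIs to 186 of Afp, while hepatoblast-like cells held 213 to 43555. The mutant EC-like cells with a Krt19 UMI had a median of 22442 UMIs, and those without had 16352. The endothelial gene Cdh5 was at 472 CPM with and 568 CPM without Krt19, Epcam at 17.4 and 4.91 CPM, and Cldn5 at 132 and 257 CPM. Among the highest doublet scores were 7 of the 72 cells with Krt19 and 20 of the 672 without. Krt19 was at 23.8 CPM (20.6 to 27.4) in 403 male-like and 7.92 CPM (5.69 to 10.7) in 251 female-like mutant EC-like cells, and at 0 in 140 female-like control cells.

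**Figure D5:**
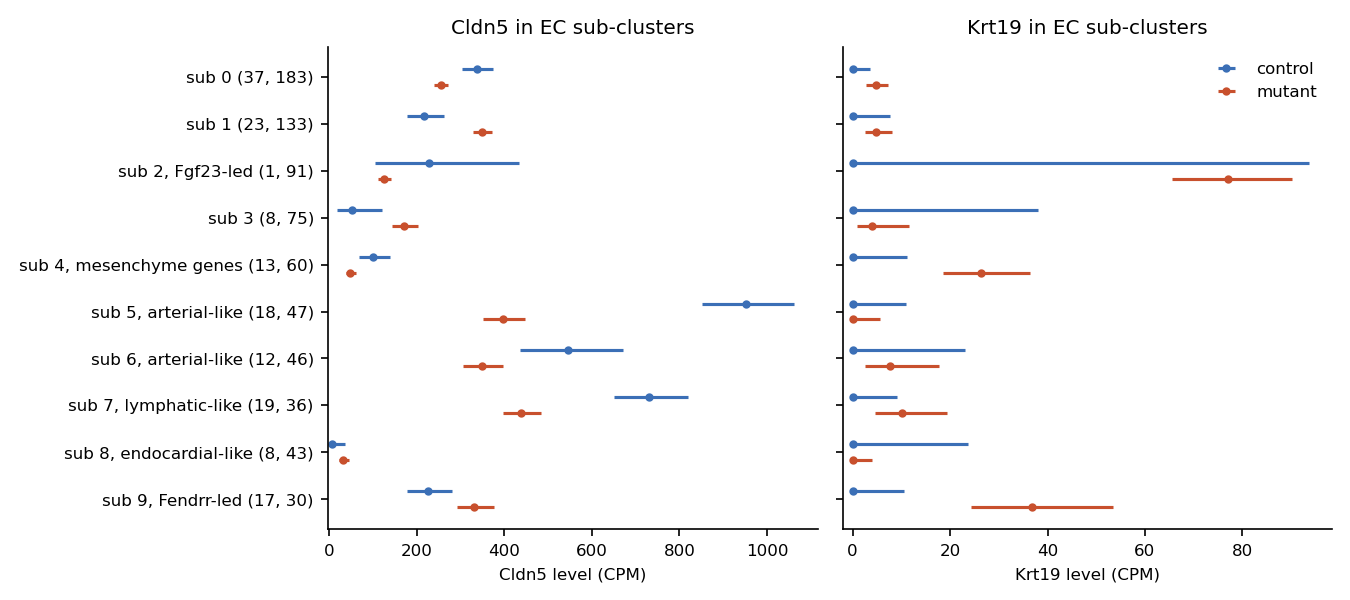
CPM of Cldn5 (left) and Krt19 (right) in 10 sub-clusters of EC-like cells, with 95% counting intervals, control in blue and mutant in orange; numbers in parentheses are control and mutant cells. Cldn5 is highest in the first arterial-like and the lymphatic-like control cells, and Krt19 reaches 77.1 CPM in the mutant cells of the Fgf23-led sub-cluster, where the control has 1 cell.

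Cardiomyocyte-like cells also held Krt19, at 6.93 CPM (2.54 to 15.1) in control and 26.8 CPM (21.4 to 33.0) in mutant cells (log2 ratio 1.95, 0.77 to 3.43), from 6 and 87 UMIs. Krt20 had 0 and 25 UMIs there, and Upk3b had 0 and 12.

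Other classes used few members. Krt10 was at 28.1 to 35.8 CPM in mesenchyme-like, branchial muscle-like, neuron-like and neural crest and Schwann-like cells and the unnamed cluster of either library, and at most at 11.8 CPM in EC-like and myeloid-like cells. Cldn12, an unusual claudin found in many tissues, was between 1.29 and 20.2 CPM across the classes. Cldn11 was at 25.4 and 15.4 CPM in mesenchyme-like cells (-0.73, -1.05 to -0.41). Krt18 was at 9.19 and 22.3 CPM (1.28, 0.90 to 1.66) and Krt8 had a log2 ratio of 2.17 (24 and 86 UMIs) in the same cells. In the mutant library the highest cell for each gene held 26 of the 86 Krt8 UMIs and 29 of the 174 Krt18 UMIs. The top 5 cells held 62.8% and 36.8% of them. In neuron-like cells Cldn3 was at 25.1 and 8.38 CPM (-1.58, -2.05 to -1.11) and Cldn9 at 19.5 and 4.51 CPM (-2.11, -2.73 to -1.52), and the epithelial marker Epcam was at 41.8 and 13.3 CPM there; its part in these values was not tested. Cldn9 in branchial muscle-like cells was at 1.93 and 7.35 CPM (1.93, 1.44 to 2.45). Beyond 1.5-fold with a counting interval that excluded no change, Krt7, Krt5 and Krt18 were also higher in mutant branchial muscle-like cells. Krt8 and Krt18 were likewise higher in mutant myeloid-like cells, and Cldn3 in mutant otic-like cells. Cldn4 and Krt15 were lower in mutant branchial muscle-like cells, Krt8 in neuron-like, Cldn7 in mesenchyme-like and Cldn9 in otic-like cells. Of the 14 members tested in the branchial muscle-like class, 4 were higher and 2 lower. The myeloid-like class had 4 tested (3 higher, 0 lower) and the otic-like class 7 (1 and 1). The neuron-like class had 6 (0 and 3) and the mesenchyme-like class 9 (2 and 2). These counts were not set against a share over all genes, so whether they exceed it was not tested. Krt24 gave 191 of its 214 UMIs in branchial muscle-like cells, at 4.33 and 4.56 CPM. Cldn13, a claudin known from mouse blood-forming tissues, gave 149 of its 151 UMIs in the myeloid-like cluster, which was led by the hemoglobin gene Hbb-bs, at 8.16 and 22.2 CPM, in 3 control and 17 mutant cells. When cells were named by marker counts without clusters, 4 control and 19 mutant cells were erythroid (red blood cell) by their markers. Whether the cells with Cldn13 were among them was not tested, so these levels are of the whole cluster. Krt80, a keratin of many epithelia, was at 6.44 CPM in control and 1.40 CPM in mutant myeloid-like cells. In neural crest and Schwann-like control cells, 27 of the 30 UMIs of Krt15 and 17 of the 23 UMIs of Krt5 came from the highest cell for each gene.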

How the data were processed

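Single-cell 5′ RNA-seq libraries, 1 per genotype from 3 pooled E13.5 embryos, were aligned by the authors to mm10 (GRCm38) with Cell Ranger 7.1.0, as the submitters' processing notes give it. The authors deposited raw UMI counts per gene and cell. Whether intronic reads were counted, and the annotation release, are not given in the sources used here. Reads shared by near-identical paralogs may be lost or split, so low counts of keratin paralogs are uncertain.

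Cells with 2001 to 8999 genes and under 10% mitochondrial UMIs were kept, as in the study. Libraries held 63153191 (control) and 69717583 (mutant) UMIs after the filter. Libraries were integrated with cell-cycle regression in Seurat 5.3.0 (R 4.3.3) on 2000 variable genes that left out the 72 members, with 30 components, 20 neighbours and resolution 0.26, which gave 15 clusters. A class was named by the marker list with the highest share raised 2-fold, where at least 3 markers (and more than of any other list, otic against epithelial excepted) were raised and at least as many stood among the 10 leading genes as of any other list. Sub-clusters used 1500 variable genes, 15 components and resolution 0.8. Doublets were kept. Scrublet (scanpy 1.11.5) called 0 control cells and 1 mutant cell, so its calls were not used.

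UMIs were summed per class and library. With 1 library per group there was no test. Levels have exact Poisson intervals, shares have exact Clopper-Pearson intervals, and log2 ratios have conditional exact binomial intervals, all at 95% and for counting error only. PCR duplicates were collapsed by UMI. A member was called higher or lower with at least 50 UMIs in both libraries together and a change of at least 1.5-fold. Its interval also had to exclude no change. This rule was tried on simulated Poisson counts, the model that the intervals assume. That trial therefore does not cover spread between cells or embryos. Members were eligible to be named where they reached 100 CPM in a class or epithelial sub-cluster. The same held for the 3 members with the most UMIs there and for called members (up to 10 per class, largest first). Not every eligible member is named. Cldn5 is given in every class, and partner lists had up to 4 examples. Other genes named in the report were chosen after their values were seen. The alternatives were other clusterings, doublet removal, edgeR 4.0.16 TMM factors, thinning and other filters. Members and lists were chosen with earlier results of these data known. Cells outside the filter entered no class comparison. Their summed levels are given by library among the flagged results only.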

Additional observations from a re-analysis of the deposited data

Results flagged for a closer look

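Under flag limits of 10 CPM and 50 cells, 3 members had differences between the libraries of opposite signs in 2 classes. Each difference was beyond 1.5-fold with a counting interval that excluded no change. These differences between classes were not tested. Krt7 had a log2 ratio of mutant over control of 1.04 in epithelium-like cells and -0.59 in mesothelium-like cells. Cldn11 had 0.75 in EC-like cells and -0.73 in mesenchyme-like cells. Cldn1, a sealing claudin, had 0.71 in epithelium-like cells and -1.02 in the unnamed cluster led by Adh1 and Myh11. Members that were not flagged also had calls of opposite signs. Among them, Krt8 was higher in mutant epithelium-like and lower in mutant neuron-like cells. Cldn4 and Krt15 were higher in mutant epithelium-like and lower in mutant branchial muscle-like cells.

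Cells outside the filter also held members. In 1722 control cells left out keratins were at 264 CPM (248 to 281) and claudins at 112 CPM (101 to 123). In 1868 mutant cells left out keratins were at 759 CPM (733 to 786) and claudins at 241 CPM (226 to 256). These cells were given no class, so their mix of cell types was not tested.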

How the results depend on the processing

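No paired analysis was possible because each genotype had 1 library and the labels carry no replicate numbers. Leaving out a replicate was not possible for the same reason. Over 63 values from alternatives, 39 stayed within the interval of the reported ratio or within 1.5 times the reported count, 24 moved, and none of the ratios whose interval excluded no change turned its sign. The causes of these moves were not tested.

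The keratin log2 ratio in epithelium-like cells (0.99) was 1.03 with no integration, 0.92 at resolution 0.8, 1.05 with the edgeR TMM factor, 0.74 with cells thinned to 5000 UMIs and 1.36 in female-like cells only. The claudin log2 ratio (0.54) was 0.44, 0.63, 0.43 and 0.68 with no integration, at resolution 0.8, with thinning and in female-like cells. The keratin log2 ratio in mesothelium-like cells (-0.03) was -0.32 with thinning and -0.34 in female-like cells. With the TMM factor it was -0.15 (-0.27 to -0.03). The Cldn5 log2 ratio in EC-like cells (-0.64) was -0.53 with the TMM factor, -0.52 with thinning and -0.43 in female-like cells. The count of members lower in mutant epithelium-like cells (2) was 1 with thinning and 4 in female-like cells.

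The next 3 alternatives were chosen after seeing the data, as were leaving out cells that shared a barcode (mesothelium) and the EC sub-cluster with mesenchyme markers. Without the periderm-like sub-cluster the keratin ratio was 0.59 and the claudin ratio 0.14, with 6 members higher and 4 lower. Sub-clusters weighted by the control's shares gave 0.24 for keratins, 0.22 for claudins and -0.43 for Cldn5. Without the mutant cell with the most keratin UMIs the keratin ratio was 0.85. With 1 library per genotype, differences between embryos, sexes and cell mixes cannot be told apart from genotype.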
